A study of Caenorhabditis elegans with 36 samples.

Results

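The *fbxa* genes of *C. elegans* encode proteins with an F-box, and they were followed here through adult life in worms with and without mild mitochondrial stress. Members were the rows of the deposited expression table whose gene symbol is *fbxa* with a number and whose value reached 1 CPM (read counts scaled to library size) in at least 3 of 36 libraries. The table held 200 *fbxa* genes, and 160 of them passed. The libraries came from N2 worms, the wild type, at 6 ages from day 1 to day 11 of adulthood in steps of 2 days, and each of the 12 groups of RNAi and age had 3 replicates. Worms were fed control bacteria with the empty vector (ev) or a mix of these with an equal part of bacteria making double-stranded RNA of *cco-1*, a gene for part of cytochrome c oxidase. No group carried a mutation or transgene. RNAi by the labels began at the L1 larval stage, while the paper's methods give the egg stage as their general rule. Each library came from pooled whole worms, in which every tissue and the embryos inside the mothers contribute RNA. The labels describe all samples as L4 or young adults, and the days used here are those of the sample titles, which the paper's methods also give.

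F-box proteins are the exchangeable part of SCF ubiquitin ligases. The F-box binds a Skp1-like protein (SKR in worms), Skp1 binds a cullin, and the rest of the F-box protein holds the substrate that is then marked with ubiquitin. Nematodes have expanded this class greatly, and the *fbxa* proteins pair the F-box with a nematode FTH domain. For most *fbxa* genes no substrate is known. FBXA-75 and FBXA-158 are known to act with the cullin CUL-6 and the adaptors SKR-3, SKR-4 and SKR-5 in the intracellular pathogen response, a transcriptional program that viruses, microsporidia and proteotoxic stress can switch on.

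The values are normalized by the authors, are not whole numbers and summed to 916765 to 953972 per library, so that read depth is unknown and no counting interval can be given. A linear model was fitted with limma to log2(CPM + 1) of all 15713 genes that passed the same filter, and a gene counted as higher or lower at an absolute log2FC above 0.5 with a Benjamini-Hochberg adjusted P below 0.05. The added 1 CPM shrinks the log2FC of low genes, and the median member averaged only 2.88 CPM over the 36 libraries. Replicates of *cco-1* RNAi worms spread more than those of ev worms at days 5, 9 and 11, with a median SD of log2(CPM + 1) over all genes of 0.105, 0.119 and 0.115 against 0.073 to 0.083 in the 6 ev groups. The RNAi target *cco-1* (chromosome I, 9788725 to 9790050, WBcel235) averaged 275 ± 8.7 CPM (SD, n = 3) under ev and 185 ± 7.4 CPM under its own RNAi at day 1 (log2FC -0.57, SE 0.06, adjusted P = 1.1e-09). Its log2FC differed by day, at -1.57, -0.86, -0.86, -0.62 and -0.72 on days 3, 5, 7, 9 and 11. Markers of germline, sperm, intestine, body wall muscle, hypodermis, neurons and pharynx were present in every group, as whole worms should give. In such samples fewer cells of a type and less RNA per cell cannot be told apart.

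The members covered a wide range of levels. Per kilobase of exon, the scale on which genes can be compared, *fbxa-215* (chromosome IV, 13665364 to 13666909) stood far above the rest at a mean of 129 CPM per kb over the 36 libraries. It was followed by *fbxa-210* (46.2), *fbxa-60* (31.7), *fbxa-101* (31.3), *fbxa-95* (26.5), *fbxa-114* (19.6), *fbxa-163* (17.8) and *fbxa-206* (17.3), each in CPM per kb. The median member had 2.37 CPM per kb. *fbxa-215* alone made up 12.3% to 23.6% of the summed CPM of the 160 members, and the 8 members of highest mean CPM made up 34.2% to 45.1%. Of the 160 members, 68 were at 1 CPM or more in all 36 libraries and 47 averaged at least 5 CPM. In 13 members the libraries at 1 CPM or more came from only 1 to 3 of the 12 groups. These 13 stay in the counts of all members below, and no count leaving out only them was made. Just inside the limit were *fbxa-44*, *fbxa-57* and *fbxa-113*, whose third-highest library had 1.03, 1.05 and 1.08 CPM. Just outside were *fbxa-62*, *fbxa-175* and *fbxa-28*, at 0.981, 0.976 and 0.972 CPM. No library of the 40 genes that failed exceeded 1.30 CPM.

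*fbxa-215* had 97.6, 103 and 106 CPM in the ev libraries of day 1 and 90.0 ± 4.7 CPM (SD, n = 3) with *cco-1* RNAi. At day 3 the ev libraries had 220, 213 and 225 CPM and the *cco-1* RNAi libraries 187 ± 5.5 CPM, with no overlap to day 1 in either RNAi. From then on ev worms lay lower again, at 164 ± 4.9 CPM by day 11. With *cco-1* RNAi the later means were not below that of day 3, at 206, 207 and 192 CPM on days 5, 7 and 9 and 189 ± 8.6 CPM on day 11. The log2FC from day 1 to day 11 was 0.68 (SE 0.04, adjusted P = 5.3e-17) in ev and 1.06 (SE 0.04, adjusted P = 7.6e-23) in *cco-1* RNAi worms. As an alternative, the authors' normalized values were scaled further by the median ratio of each library. After this scaling the log2FC of *fbxa-215* in ev worms was 0.36, which is not past the threshold.

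**Figure D1:**
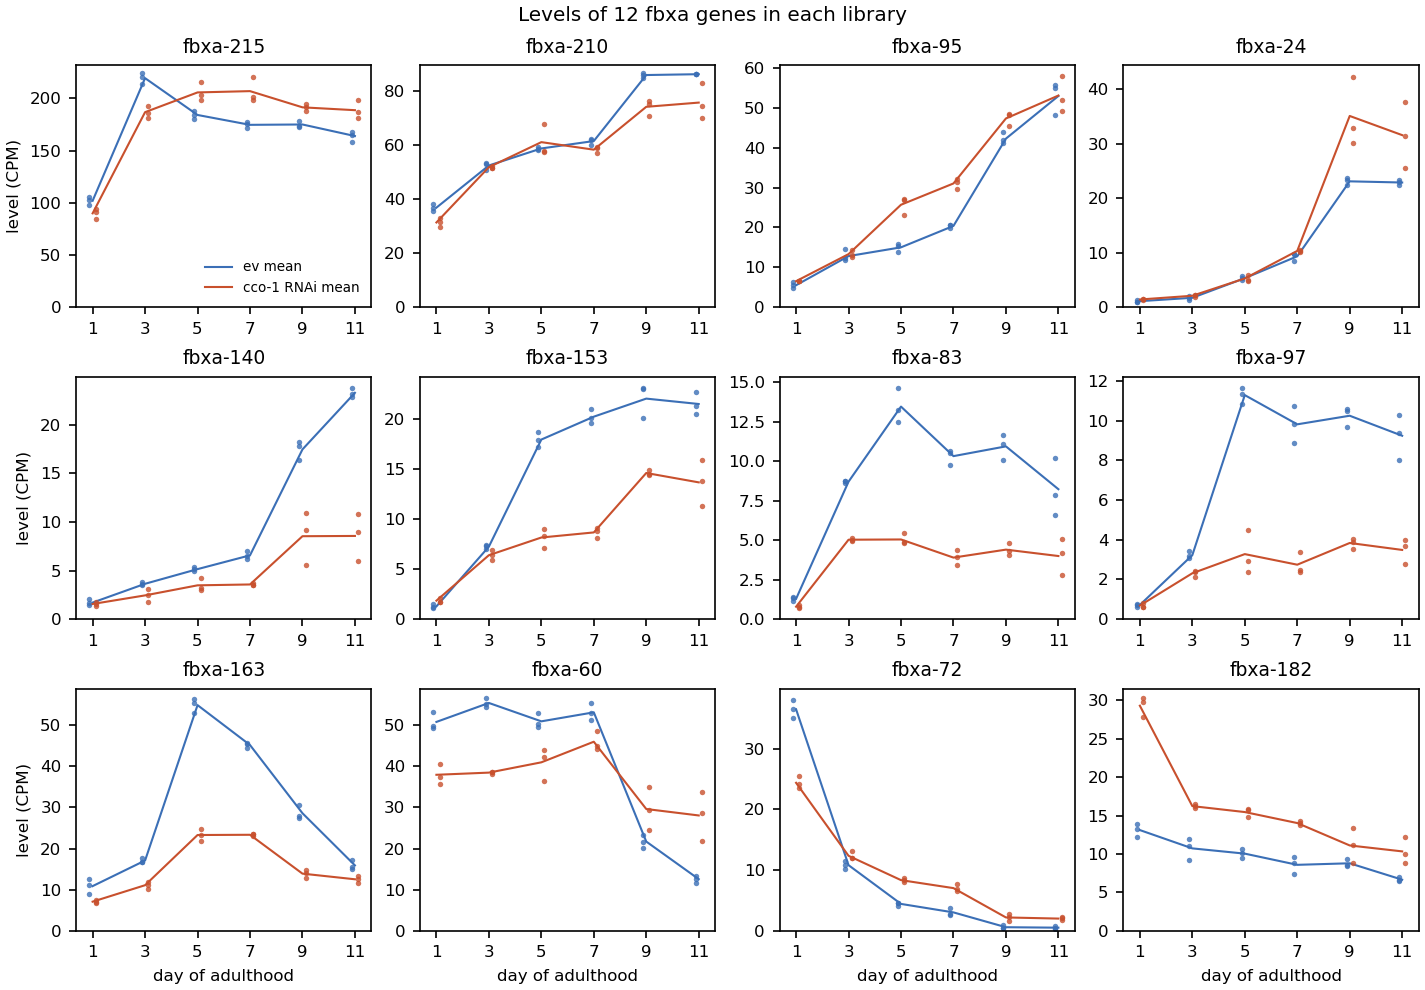
Level of 12 *fbxa* genes (vertical axis, CPM, a separate scale for each gene) against day of adulthood. Each point is 1 library and the lines join the means of 3 ev libraries (blue) or 3 *cco-1* RNAi libraries (red). *fbxa-24* climbed from 1.14 to 22.9 CPM and *fbxa-72* went from 36.5 to 0.52 CPM in ev worms, while *fbxa-83* was called lower with *cco-1* RNAi from day 3 and *fbxa-97* from day 5 on.

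The summed level of the 160 members was higher in every library of day 11 than in any of day 1. In ev worms the sum was 656 ± 1.0 CPM (SD, n = 3) at day 1, 942 ± 24 CPM at day 3, 1049 ± 4.7 CPM at day 5, 1021 ± 21 CPM at day 7, 1240 ± 21 CPM at day 9 and 1304 ± 19 CPM at day 11. With *cco-1* RNAi it was 587 ± 3.6, 847 ± 8.6, 975 ± 19, 987 ± 20, 1137 ± 48 and 1100 ± 85 CPM on the same days. The libraries of the 2 RNAi conditions overlapped on day 7, where ev libraries had 1004 to 1044 CPM and *cco-1* RNAi libraries 972 to 1010 CPM, and on none of the other 5 days. The ranges of day 9 lay close, at 1218 to 1261 CPM in ev and 1088 to 1184 CPM in *cco-1* RNAi libraries. All these sums are of the authors' values and were not repeated with median-ratio scaling, which could move them. On day 1 ev libraries had 655 to 657 CPM and *cco-1* RNAi libraries 583 to 591 CPM, and on day 11 they had 1285 to 1323 and 1023 to 1191 CPM. Without *fbxa-215* the sum still went from 554 ± 3.2 to 1140 ± 16 CPM in ev worms and from 497 ± 1.8 to 911 ± 76 CPM with *cco-1* RNAi. The number of members at 5 CPM or more went from 22 to 24 per ev library at day 1 to 60 to 63 at day 11, and with *cco-1* RNAi from 21 to 22 to 46 to 54.

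Between days 1 and 11 of ev worms, 88 of 160 members rose and 37 fell. Among all genes tested 41.8% rose and 27.4% fell, with a median log2FC of 0.31 against 0.63 for the members. Median-ratio scaling moves the median of all genes in this comparison by -0.265 to 0.04. With it 77 members rose and 47 fell, where 29.9% of all genes rose and 32.9% fell. In the first part of this interval, day 1 to day 5, 75 members rose and 25 fell, where 31.6% of all genes rose and 26.8% fell. From day 5 to day 11, 51 rose and 41 fell, close to the background of 27.9% and 27.5%. In 28 members both steps were called as rises (17.5% of members, 6.58% of all genes), among them *fbxa-24*, *fbxa-95*, *fbxa-101*, *fbxa-107*, *fbxa-114*, *fbxa-140*, *fbxa-206*, *fbxa-210* and *fbxa-217*. Of these, *fbxa-114* and *fbxa-210* lost the call of the second step with median-ratio scaling, at a log2FC of 0.38 and 0.36. Another 34 rose by day 5 with no call after (21.2% of members, 15.2% of all genes), and 13 rose by day 5 and fell after (8.12%, against 9.89%). Falls in both steps were called in 7 (4.38%, against 9.57%), a fall and then a rise in 10 (6.25%, against 9.79%), and no change in either step in 26 (16.2%, against 22%). The counts of such courses, here and below, were not repeated with median-ratio scaling. That scaling lowered the share of all genes risen from 31.6% to 26.7% by day 5 and from 27.9% to 21.7% after it. The abundant members lay above the background, with 36 of the 47 members of at least 5 CPM risen and 7 fallen, where 45.4% of all genes of such mean rose and 27.6% fell.

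Large rises by day 11 began from different levels. *fbxa-24* (chromosome II, 3816526 to 3818238) had 1.38, 1.04 and 0.997 CPM in ev worms of day 1, 9.84, 8.46 and 9.79 CPM at day 7 and 23.3, 22.9 and 22.5 CPM at day 11. All late libraries lay above all early ones, and the log2FC from day 1 to day 11 was 3.49 (SE 0.11, adjusted P = 5.3e-27). *fbxa-140* (chromosome I, 12960313 to 12961619) went from 1.41, 2.03 and 1.67 CPM to 22.9, 23.8 and 23.2 CPM, a log2FC of 3.17 (SE 0.16, adjusted P = 1.1e-18). Most of that step came late, since at day 7 it was still at 6.57 ± 0.38 CPM (SD, n = 3). *fbxa-95* (chromosome V, 15571476 to 15572715) had a higher mean at each age than at the one before, from 5.55 ± 0.76 CPM at day 1 through 15 ± 0.98 CPM at day 5 to 52.9 ± 4.2 CPM at day 11. *fbxa-217*, annotated as a pseudogene (chromosome I, 11903734 to 11905148), went from 2.35 ± 0.23 to 27 ± 1.1 CPM, a log2FC of 3.07 (SE 0.09, adjusted P = 9.1e-28).

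Other members rose early and then held or fell back. *fbxa-153* (chromosome V, 15605673 to 15610384) had 1.12, 1.18 and 1.52 CPM in ev worms of day 1 and 17.9, 18.8 and 17.2 CPM at day 5, a log2FC of 3.06 (SE 0.09, adjusted P = 2.1e-27), and stayed at 21.6 ± 1.1 CPM by day 11. *fbxa-163* (chromosome II, 1609252 to 1610730) peaked instead. Its ev libraries had 11.2, 8.96 and 12.5 CPM at day 1, 52.9, 55.2 and 56.3 CPM at day 5 and 15.9 ± 1.1 CPM at day 11, a rise of 2.25 (SE 0.08) followed by a fall with a log2FC of -1.73 (SE 0.08, adjusted P = 3.2e-21). *fbxa-158*, *fbxa-47* and *fbxa-83* had the same course in ev worms, with a log2FC of 2.63, 2.64 and 2.66 to day 5 and of -0.76, -1.02 and -0.66 from day 5 to day 11. The summed level of 9 embryo markers, 7 of which passed the filter, was also highest at day 5, with 6.2 to 7.0 CPM in ev worms of day 1, 45.6 to 49.8 CPM at day 5 and 14.8 to 15.4 CPM at day 11. Their part in the course of these genes was not tested.

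Among the members that fell, *fbxa-72* (chromosome V, 674886 to 676753) changed most. It had 35.0, 38 and 36.5 CPM in ev worms of day 1, 10.8, 11.5 and 10.2 CPM at day 3, 4.6, 4.6 and 4.1 CPM at day 5 and 0.739, 0.441 and 0.379 CPM at day 11. No library of a later day reached the lowest of day 1, and the log2FC to day 11 was -4.63 (SE 0.11, adjusted P = 1.4e-30). *fbxa-74* (chromosome III, 1696952 to 1698986) went from 11.3 ± 0.79 to 1.34 ± 0.58 CPM (SD, n = 3), a log2FC of -2.42 (SE 0.12, adjusted P = 1.0e-20). *fbxa-60* (chromosome III, 944733 to 946300) was as high at day 7 as at day 1, with 53.3, 49.3 and 49.8 CPM on day 1 and 52.9, 51.2 and 55.3 CPM on day 7. It then had 20.2, 21.6 and 23.3 CPM at day 9 and 13.4, 12.6 and 11.7 CPM at day 11, a log2FC of -1.93 (SE 0.10, adjusted P = 5.3e-18) against day 1. Summed markers of some somatic tissues were also lower in old ev worms, those of 7 body wall muscle genes going from 7990 to 8271 CPM at day 1 to 302 to 349 CPM at day 11, and those of 8 intestinal genes from 3605 to 3672 to 219 to 253 CPM. Their part in the falls of *fbxa* genes was not tested.

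A further course was a dip in middle adulthood. The 10 members that fell by day 5 and rose after it in ev worms were *fbxa-125*, *fbxa-155*, *fbxa-178*, *fbxa-183*, *fbxa-196*, *fbxa-201*, *fbxa-202*, *fbxa-218*, *fbxa-223* and *fbxa-224*. They are 6.25% of the members, below the 9.79% of all genes with this course, and the fall of *fbxa-183* by day 5 lost its call without any 1 of 3 ev libraries. *fbxa-202* (chromosome V, 6327280 to 6328865) had 5.49, 5.68 and 6.30 CPM at day 1, 0.992, 0.693 and 0.796 CPM at day 5 and 10.7, 10.6 and 11.0 CPM at day 11. *fbxa-155* (chromosome III, 10007966 to 10010217) had 3.60 ± 0.22 CPM (SD, n = 3), 1.42 ± 0.12 CPM and 18.8 ± 0.69 CPM on those days, the largest rise from day 5 to day 11 among the members of at least 2 CPM (log2FC 3.03, SE 0.13, adjusted P = 3.8e-22). *fbxa-125* and *fbxa-196* went from 1.17 ± 0.23 and 0.735 ± 0.11 CPM at day 5 to 13.6 ± 0.36 and 7.27 ± 0.52 CPM at day 11. With *cco-1* RNAi, 7 of these 10 members were again called lower by day 5 and higher after it, and they were all the members with this course, 4.38% against 8.73% of all genes. The summed level of 10 sperm markers was lowest at day 5 as well, at 846 to 876 CPM in ev worms of day 1, 38.7 to 42.4 CPM at day 5 and 237 to 249 CPM at day 11. With *cco-1* RNAi it was 935 to 1011 CPM at day 1, 95.3 to 106 CPM at day 5 and up to 325 CPM at day 11. Their part was not tested.

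**Figure D2:**
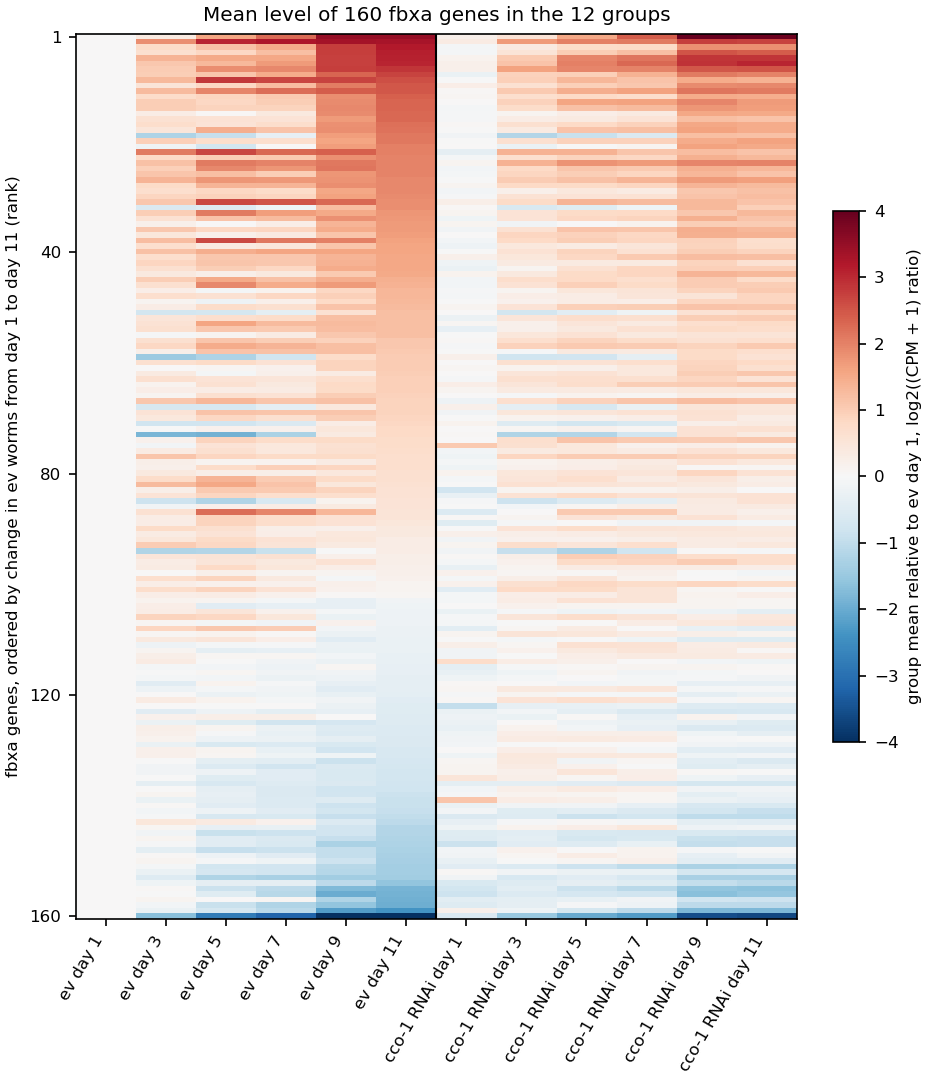
Mean level of the 160 *fbxa* genes (rows, ordered by their change from day 1 to day 11 in ev worms) in the 12 groups (columns), each as log2((CPM + 1) ratio) to the mean of ev day 1. Red is higher and blue lower than ev day 1, and the scale ends at 4 and -4. By this order the largest rises, led by *fbxa-24*, and the largest fall, *fbxa-72*, stand at opposite ends of the map.

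With *cco-1* RNAi the members again rose more often than they fell. From day 1 to day 11, 78 of 160 rose and 14 fell, where 34.1% of all genes rose and 23.7% fell. After median-ratio scaling 68 rose and 22 fell, against 25.3% and 29.2% of all genes. By day 5, 76 had risen and 12 fallen, against 30.1% and 23.1% of all genes, and from day 5 to day 11 34 rose and 22 fell, against 16.8% and 17.2%. *fbxa-24* had 1.47, 1.47 and 1.40 CPM at day 1 and 25.6, 37.7 and 31.4 CPM at day 11, a log2FC of 3.72 (SE 0.11, adjusted P = 1.1e-27). *fbxa-95* went from 6.56 ± 0.03 to 53.0 ± 4.5 CPM (SD, n = 3) and *fbxa-217* from 2.71 ± 0.30 to 23.2 ± 2.3 CPM. *fbxa-72*, *fbxa-74* and *fbxa-182* fell most, with a log2FC of -3.08 (SE 0.11), -1.99 (SE 0.12) and -1.43 (SE 0.10).

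**Figure D3:**
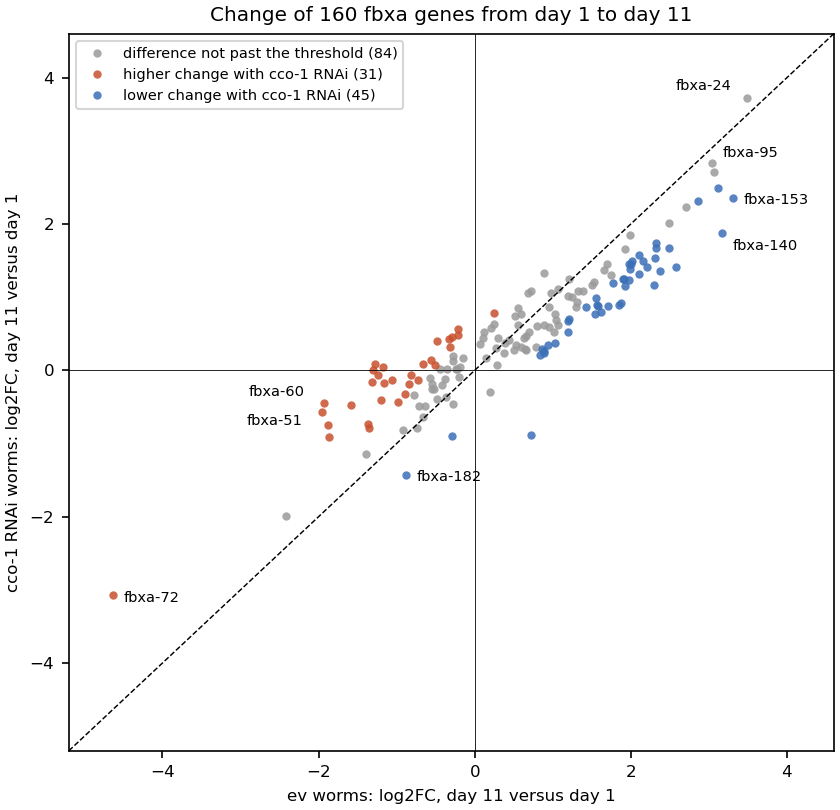
Change of the 160 *fbxa* genes from day 1 to day 11, as log2FC in ev worms (horizontal axis) and in *cco-1* RNAi worms (vertical axis). Each point is 1 gene, the dashed line marks equal changes, and colour marks the 31 genes with a higher and the 45 with a lower change in *cco-1* RNAi worms. *fbxa-72* changed by -4.63 without and -3.08 with *cco-1* RNAi, and *fbxa-140* by 3.17 and 1.87.

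Whether ageing changed a member differently under the 2 RNAi conditions was tested as a contrast of its own. From day 1 to day 11, 31 members had a higher change with *cco-1* RNAi and 45 a lower one, where 17.2% and 18.1% of all genes passed. After median-ratio scaling these counts were 35 and 33, against 18.9% and 14.1% of all genes. *fbxa-72* had the largest positive difference among the members of at least 2 CPM, 1.56 (SE 0.16, adjusted P = 2.2e-10), followed by *fbxa-60* with 1.49 (SE 0.14) and *fbxa-51* with 1.39 (SE 0.19), and in ev worms all 3 fell by day 11. With *cco-1* RNAi *fbxa-60* had a log2FC of -0.44, which is not past the threshold, and *fbxa-51* one of -0.57, which was -0.36 and no longer past it without *cco-1* RNAi replicate 2 of day 11. The largest negative differences were those of *fbxa-166* with -1.60 (SE 0.18, adjusted P = 1.6e-09), *fbxa-140* with -1.30 (SE 0.23) and *fbxa-97* with -1.17 (SE 0.17). *fbxa-140* and *fbxa-97* rose less with *cco-1* RNAi, whereas *fbxa-166* changed direction, from 0.911 ± 0.12 to 2.15 ± 0.23 CPM (SD, n = 3) in ev worms and from 2.91 ± 0.21 to 1.13 ± 0.28 CPM with *cco-1* RNAi. From day 1 to day 5 the change was higher for 33 members and lower for 25, near the 17.5% and 17% of all genes. *fbxa-47*, *fbxa-97* and *fbxa-158* had the lowest values there, -1.55 (SE 0.13), -1.53 (SE 0.17) and -1.49 (SE 0.15).

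Within single days, few members differed between the RNAi conditions in young adults. At day 1, 3 members were higher and 11 lower with *cco-1* RNAi, where 4.63% and 4.46% of all genes passed. The 3 higher members were *fbxa-182*, *fbxa-166* and *fbxa-216*. *fbxa-182* (chromosome II, 2409633 to 2412749) had 12.2, 13.3 and 13.9 CPM in ev and 29.7, 30.3 and 27.8 CPM in *cco-1* RNAi worms (log2FC 1.10, SE 0.10, adjusted P = 3.8e-11). *fbxa-166* (chromosome II, 1616829 to 1619048) had 0.876, 1.04 and 0.816 against 2.99, 2.67 and 3.07 CPM, a log2FC of 1.03 (SE 0.13, adjusted P = 2.1e-08). In both genes the groups lay well apart, and *fbxa-182* was also called higher at days 3, 5, 7 and 11. Its call of day 3 was lost without ev replicate 3 (log2FC 0.46) and that of day 11 without *cco-1* RNAi replicate 1 (log2FC 0.44). Among the lower members, *fbxa-79* had 11.6 ± 0.78 CPM (SD, n = 3) in ev and 5.55 ± 0.40 CPM in *cco-1* RNAi worms (log2FC -0.94, SE 0.09, adjusted P = 3.8e-11), *fbxa-190* had 4.97 ± 0.57 against 2.39 ± 0.09 CPM, and *fbxa-37* had 11.7 ± 1.4 against 6.55 ± 0.56 CPM. At day 3, 8 members were higher and 8 lower, against 9.36% and 7.92% of all genes. *fbxa-107* had 7.49, 7.33 and 6.77 CPM in ev and 11.3, 10.9 and 11.3 CPM in *cco-1* RNAi worms (log2FC 0.57, SE 0.09, adjusted P = 4.5e-06), and *fbxa-128* (chromosome III, 11136799 to 11139113) had 6.89 ± 0.48 against 3.59 ± 0.37 CPM. The lower count of day 3 rested on members near the threshold, since it was 15 without ev replicate 2 and 16 without *cco-1* RNAi replicate 2.

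In middle adulthood members, like all genes, were called more often than at day 3. At day 5, 27 were higher and 28 lower with *cco-1* RNAi (16.9% and 17.5% of the members), near the 16.7% and 16.6% of all genes. At day 7, 29 were higher and 23 lower (18.1% and 14.4%), against 11.6% and 13% of all genes. *fbxa-47* (chromosome III, 2229992 to 2232460) had the lowest log2FC of day 5 among members of at least 2 CPM, with 7.38, 7.31 and 7.29 CPM in ev and 1.43, 1.98 and 1.49 CPM in *cco-1* RNAi worms (log2FC -1.67, SE 0.10, adjusted P = 9.4e-18). *fbxa-97*, annotated as a pseudogene on chromosome X (15042956 to 15045353), had 10.9, 11.6 and 11.3 against 2.95, 4.50 and 2.37 CPM (log2FC -1.55, SE 0.12, adjusted P = 9.9e-14). *fbxa-163* had 54.8 ± 1.8 against 23.3 ± 1.4 CPM (SD, n = 3), so its peak of day 5 was lower with *cco-1* RNAi (log2FC -1.20, SE 0.08, adjusted P = 8.2e-16). In all 3 genes no *cco-1* RNAi library of day 5 reached an ev library. Among the higher members were *fbxa-51*, at 2.93 ± 0.15 against 5.99 ± 0.86 CPM, *fbxa-180*, at 1.16 ± 0.29 against 3.14 ± 0.50 CPM, and *fbxa-72*, at 4.43 ± 0.29 against 8.36 ± 0.35 CPM. At day 7 *fbxa-97*, *fbxa-47* and *fbxa-158* had the lowest log2FC and *fbxa-51*, *fbxa-72* and *fbxa-180* the highest, again among members of at least 2 CPM. *fbxa-97* had 9.84, 8.88 and 10.7 CPM in ev and 2.49, 3.37 and 2.36 CPM in *cco-1* RNAi worms (log2FC -1.54, SE 0.12, adjusted P = 2.2e-13), and *fbxa-51* had 2.46, 1.90 and 1.97 against 5.10, 5.36 and 5.56 CPM (log2FC 1.03, SE 0.14, adjusted P = 2.9e-08). Neither gene's groups overlapped. The embryo markers summed to 23.0 to 25.2 CPM in *cco-1* RNAi worms of day 5, below the 45.6 to 49.8 CPM of ev worms, and their part in these differences was not tested.

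In old worms members differed in both directions, and at day 9 the order of the counts turned with the scaling. At day 9, 13 were higher and 20 lower, against 9.44% and 8.69% of all genes, and with median-ratio scaling 16 were higher and 15 lower, against 10.9% and 6.94%. *fbxa-72* had 0.470, 0.432 and 0.886 CPM in ev and 2.74, 2.23 and 1.65 CPM in *cco-1* RNAi worms of day 9, and *fbxa-83* had 10.1, 11.7 and 11.1 against 4.33, 4.83 and 4.05 CPM (log2FC -1.15, SE 0.12, adjusted P = 3.9e-10). Again no library of one RNAi lay among those of the other. At day 11, 23 were higher and 42 lower, against 15.1% and 13.3%, with 26 and 31 after median-ratio scaling, against 17.1% and 8.47%. Leaving out single libraries gave 36 to 50 lower members at day 11. The surplus lay in the abundant members, of which 5 of 47 were higher and 22 lower at day 11, where 17.5% and 11.0% of all genes of at least 5 CPM passed. *fbxa-140* had 22.9, 23.8 and 23.2 CPM in ev and 5.93, 10.8 and 8.93 CPM in *cco-1* RNAi worms of day 11 (log2FC -1.38, SE 0.16, adjusted P = 8.6e-09). *fbxa-101*, its neighbour, had 66.4, 64.2 and 70.0 against 36.8, 47.5 and 39.5 CPM (log2FC -0.69, SE 0.08, adjusted P = 5.7e-10). The *cco-1* RNAi libraries were widely spread in both genes, yet all 3 lay below all ev libraries. *fbxa-122*, a pseudogene on the same chromosome (12006911 to 12008040), had 11.4 ± 0.82 against 4.56 ± 1.2 CPM (SD, n = 3). In the other direction *fbxa-60* had 12.6 ± 0.81 against 28.1 ± 6.0 CPM (log2FC 1.08, SE 0.10, adjusted P = 1.4e-10), *fbxa-55* 1.17 ± 0.29 against 3.80 ± 0.48 CPM (log2FC 1.15, SE 0.12, adjusted P = 2.4e-10) and *fbxa-180*, annotated as a pseudogene, 0.719 ± 0.30 against 3.09 ± 0.28 CPM (log2FC 1.26, SE 0.14, adjusted P = 3.9e-10). Intestinal markers summed to 1289 to 2198 CPM in *cco-1* RNAi and 219 to 253 CPM in ev worms of day 11, and body wall muscle markers to 834 to 1412 and 302 to 349 CPM. Their part in the higher members was not tested.

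Across the 6 days, 48 members were never called, which is 30.0% of the members against 44.2% of all genes. Another 60 were lower on at least 1 day and never higher (37.5% of members, 25.0% of all genes), and 46 were higher and never lower (28.8%, against 26.4%). Calls in both directions were made for 6, near the share of all genes (3.75%, against 4.44%). *fbxa-180* and *fbxa-182* were higher on 5 days, and *fbxa-37*, *fbxa-83*, *fbxa-163* and *fbxa-181* lower on 5 days. Some of these calls lay near the threshold. Leaving out 1 library ended that of *fbxa-180* at day 3 (ev replicate 2), of *fbxa-163* at day 1 (ev replicate 3) and of *fbxa-181* at day 5 (*cco-1* RNAi replicate 3) and day 9 (ev replicate 2), and *fbxa-37* had a log2FC of -0.46 at day 11 with median-ratio scaling. *fbxa-83* (chromosome IV, 14323237 to 14326383) had 13.5 ± 1.1 CPM (SD, n = 3) in ev and 5.04 ± 0.34 CPM in *cco-1* RNAi worms at day 5 (log2FC -1.26, SE 0.12) and 8.23 ± 1.8 against 4.0 ± 1.1 CPM at day 11. *fbxa-72* and *fbxa-51* crossed over. Each was lower with *cco-1* RNAi at day 1, at 24.4 ± 0.99 against 36.5 ± 1.5 CPM and at 4.05 ± 0.27 against 6.23 ± 0.74 CPM, and higher on 4 later days. For *fbxa-51* the call of day 1 was lost without ev replicate 1 or 2 or *cco-1* RNAi replicate 1, and that of day 9 without ev replicate 3 or *cco-1* RNAi replicate 1.

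**Figure D4:**
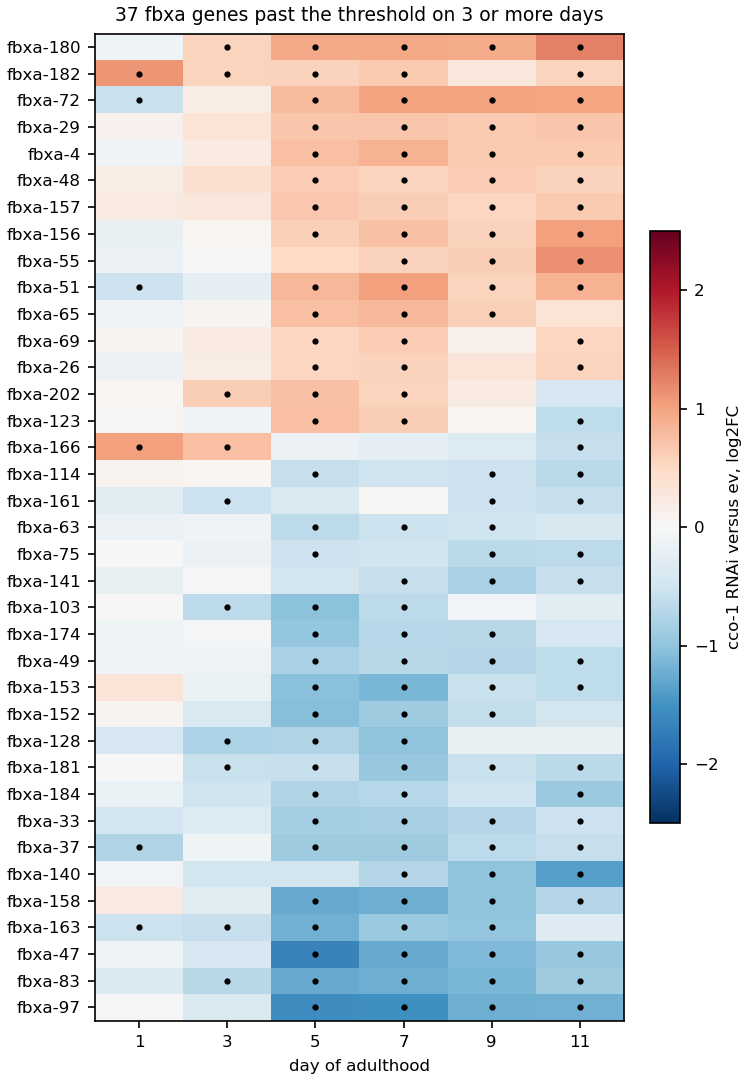
Log2FC between *cco-1* RNAi and ev worms (colour) of the 37 *fbxa* genes called on at least 3 of the 6 days, ordered by their mean log2FC, with the day of adulthood on the horizontal axis. Black points mark the days on which a gene was called. *fbxa-180* and *fbxa-182* carry 5 points on the higher side and *fbxa-37*, *fbxa-83*, *fbxa-163* and *fbxa-181* 5 points on the lower side.

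The *fbxa* genes sit in runs along the chromosomes. With a gap of less than 10000 bases between neighbours, 142 of the 200 genes lay in 35 runs and 58 stood alone. Of the 160 members, 68 lie on chromosome V, 49 on III, 18 on II, 13 on I, 9 on X and 3 on IV. The chromosomes were compared after the values had been seen, so their counts are a description only. On chromosome III 12 of 49 members rose and 20 fell from day 1 to day 11 in ev worms, with a median log2FC of -0.23, although 50.0% of all genes on that chromosome rose and 17.8% fell. On chromosome V 44 of 68 rose and 14 fell, against 37.3% and 33.9% of all its genes. On chromosome I 11 of 13 rose and none fell (median log2FC 1.99), against 48.8% and 17.8%, and with *cco-1* RNAi at day 11 none of these 13 was higher and 9 were lower, against 7.36% and 14.2% of all genes on it. The 13 genes of chromosome I and the 49 of chromosome III also lay on opposite sides in the difference of the age changes to day 11, with 0 higher and 10 lower on I (8.38% and 19.1% of all its genes) and 16 higher and 5 lower on III (11.1% and 19.1%). Members of a run may share sequence as well as position, so they are not independent of each other.

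Runs could move together or not, and those named here were picked from the 35 after their values were seen. The run of 10 genes at 933422 to 963833 on chromosome III, with 9 members, held *fbxa-60*, *fbxa-55*, *fbxa-54* and *fbxa-51*. In ev worms 6 of its 9 members fell and 1 rose from day 1 to day 11 (median log2FC -1.30), where 27.4% of all genes fell and 41.8% rose. With *cco-1* RNAi 1 fell and 1 rose (median log2FC -0.16), against 23.7% and 34.1% of all genes. At day 11, 5 of the 9 were higher and 1 was lower with *cco-1* RNAi, against 15.1% and 13.3% of all genes. The largest run, 25 genes at 1236015 to 1324613 on the same chromosome with 20 members, showed no common direction. Of these members 6 rose and 6 fell in ev worms, where 41.8% and 27.4% of all genes did. The falls thus lay near the share of all genes. This run holds *fbxa-37* (25.1 ± 1.7 CPM in ev worms of day 5, SD, n = 3), *fbxa-79* and *fbxa-75*. On chromosome II, the run of 8 genes at 1606595 to 1622847 holds *fbxa-158*, *fbxa-163* and *fbxa-166*. Of its 7 members 6 rose in ev worms and none fell, against 41.8% and 27.4% of all genes. All 5 members of the run at 17637982 to 17659385 on chromosome V rose as well. Neighbours could still differ. On chromosome I, *fbxa-216* and *fbxa-217* stand next to each other, from 11901660 to 11903310 and from 11903734 to 11905148, yet *fbxa-216* had 3.92 ± 0.47 CPM in ev worms of day 1 and 3.01 ± 0.22 CPM at day 11, a log2FC of -0.29 that is not past the threshold, while *fbxa-217* had 2.35 ± 0.23 and 27 ± 1.1 CPM.

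Several members need care in reading. Of the 160, 27 share exon bases with another annotated gene, at most 36.4% of their exon length in *fbxa-88*, and the authors counted reads without regard to strand. Without these 27 genes, 75 of 133 members rose and 30 fell in ev worms from day 1 to day 11. Among all genes tested, with none left out for shared exons, 41.8% rose and 27.4% fell. Reads that fit near-identical copies equally well were not counted by the authors, which can lower the values of close paralogs, and no value tells how much. In all, 33 members are annotated as pseudogenes. Of these 23 rose and 4 fell from day 1 to day 11 in ev worms, close to the 63.6% and 11.9% of all pseudogenes tested. At day 11, 3 of the 33 were higher and 14 lower with *cco-1* RNAi, against 6.33% and 33.3% of all pseudogenes.

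Of the members singled out for a known or proposed place in the intracellular pathogen response, *fbxa-158* was lower and *fbxa-182* higher with *cco-1* RNAi on several days. *fbxa-182*, described above at day 1, had 6.66 ± 0.25 CPM (SD, n = 3) in ev and 10.3 ± 1.7 CPM in *cco-1* RNAi worms of day 11. *fbxa-158* (chromosome II, 1619814 to 1621280) had 1.30, 1.47 and 1.48 CPM in ev worms of day 1 and 12.5, 15.6 and 14.0 CPM at day 5, a log2FC of 2.63 (SE 0.11, adjusted P = 3.0e-23). With *cco-1* RNAi it had 5.18, 5.73 and 4.84 CPM at day 5, below every ev library of that day (log2FC -1.26, SE 0.11, adjusted P = 7.4e-13), and it was also lower at days 7, 9 and 11. *fbxa-75* (chromosome III, 1303714 to 1305461) was near or under the filter in all groups and passed it only through old ev worms. Its calls are therefore not described as changes of this gene. These calls still enter the counts of members above, with *fbxa-75* as lower with *cco-1* RNAi on 3 days and as risen by day 5 in ev worms. Its ev libraries had 0.220, 0.052 and 0.119 CPM at day 1 and 0.602, 1.02 and 1.84 CPM at day 11, and its *cco-1* RNAi libraries of day 11 had 0.252, 0.438 and 0.323 CPM.

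The known partners of these proteins differed in their course. *cul-6* went from 7.6 to 23.5 CPM between days 1 and 5 in ev worms (log2FC 1.51, SE 0.09, adjusted P = 2.4e-18) and was lower with *cco-1* RNAi at day 5 (13.1 CPM, log2FC -0.80, SE 0.09). *skr-4*, by contrast, fell from 25.8 CPM at day 1 to 5.5 CPM at day 11 in ev worms (log2FC -2.04, SE 0.11, adjusted P = 2.2e-19), and at day 11 it was higher with *cco-1* RNAi (13.3 CPM, log2FC 1.12, SE 0.11). *skr-3* fell from 59.5 to 23.4 CPM over the same days (log2FC -1.31, SE 0.08), and *skr-5* stayed between 1.3 and 1.9 CPM in ev worms. *rcs-1*, which encodes a RING protein of the same ligase, fell from 21.2 to 12.4 CPM (log2FC -0.73, SE 0.07). Over a wider list of 37 tested genes of the pathogen response, mostly *pals* genes and sharing *cul-6*, *skr-3*, *skr-4* and *skr-5* with the list below, 23 rose and 5 fell from day 1 to day 11 in ev worms, where 41.8% of all genes rose and 27.4% fell. At day 5, 2 were higher and 20 lower with *cco-1* RNAi, against 16.7% and 16.6% of all genes. Among these, *eol-1* was at 31.4 CPM in ev and 9.0 CPM in *cco-1* RNAi worms of day 5 (log2FC -1.69, SE 0.08, adjusted P = 2.6e-20), and *pals-27* at 10.5 and 3.9 CPM (log2FC -1.25, SE 0.11).

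Of the general SCF parts, *skr-1*, the main Skp1 of the worm, was at 242 CPM in ev worms of day 1 and 247 CPM at day 11 (log2FC 0.03), and *cul-1*, the SCF cullin, at 125 and 150 CPM (log2FC 0.26), neither past the threshold. *skr-7* and *skr-21* had 5.8 and 1.8 CPM at day 1 and 96.3 and 45.3 CPM at day 5 in ev worms (log2FC 3.83 and 4.05, SE 0.09 each), and at day 5 both were lower with *cco-1* RNAi (log2FC -1.53 and -1.96). Of the 28 *skr*, cullin and *rbx* genes, 19 rose and 3 fell from day 1 to day 11 in ev worms (41.8% and 27.4% of all genes), and at day 5 none was higher and 12 were lower with *cco-1* RNAi (16.7% and 16.6%). Other F-box genes, 144 tested and mainly *fbxb* and *fbxc*, moved mostly one way, with 137 risen and 1 fallen by day 5 in ev worms, where 31.6% of all genes rose and 26.8% fell. From day 5 to day 11, 9 rose and 110 fell (27.9% and 27.5% of all genes), and at day 5, 1 was higher and 114 lower with *cco-1* RNAi (16.7% and 16.6%). For the 160 *fbxa* members the counts of the last comparison were 27 and 28. Of 41 *bath* genes, which encode substrate adaptors of the cullin CUL-3, 37 rose and 1 fell from day 1 to day 11 in ev worms (41.8% and 27.4% of all genes). No test of the difference between lists was made.

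**Figure D5:**
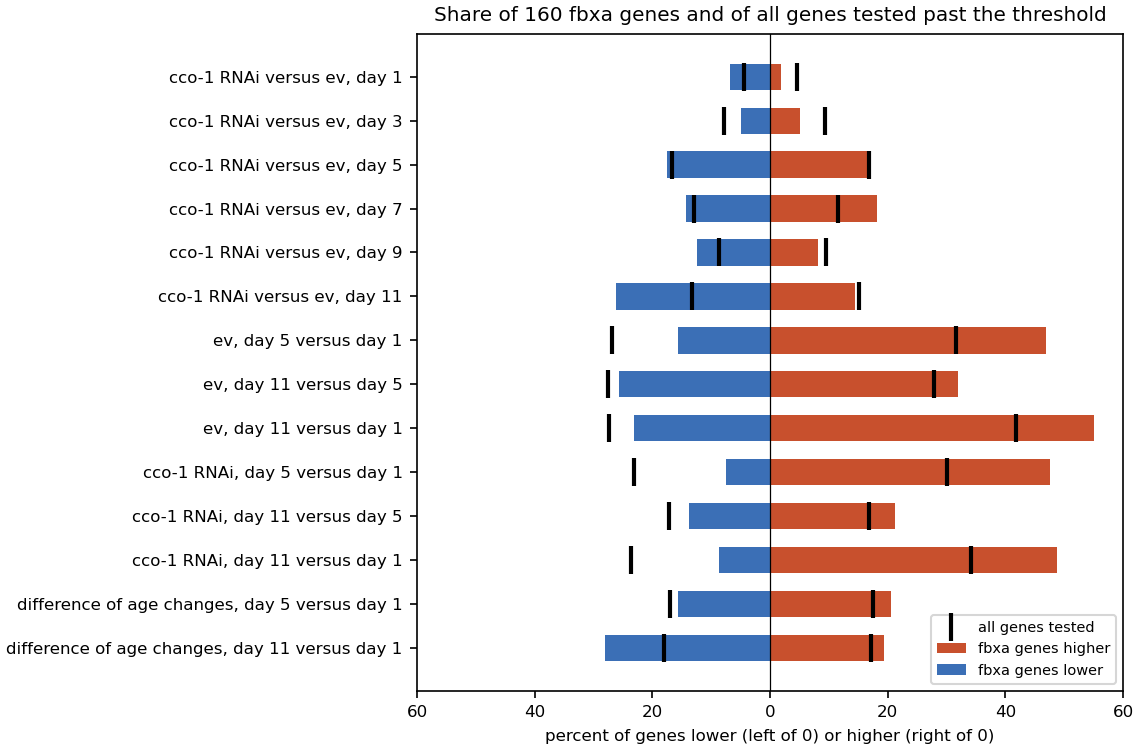
Percent of the 160 *fbxa* genes that were higher (red, right of 0) or lower (blue, left of 0) in each of 14 comparisons, with black ticks for the percent of all 15713 genes tested. The bars pass the ticks on the higher side of the age comparisons from day 1 and on the lower side of the RNAi comparison of day 11, and lie close to them for the RNAi comparison of day 5.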

How the data were processed

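The authors sequenced poly(A) RNA of whole worms, aligned reads with STAR (2.73a per the submitters' notes) to WBcel235 and counted uniquely mapped reads over exons without strand. They deposited 1 table of normalized CPM values, linear and without whole numbers, from their limma-voom normalization. The 10th highest value was 3019 in each library, as quantile normalization would leave it. Its lowest value, 0.0216 to 0.0534 CPM by library, was shared by 34 to 754 genes, and 0 to 4 members lay at it, so such values mean no more than very low. The same table holds the authors' own log2 fold changes and p-values, and another their gene set scores, which were not used.

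From these values log2(CPM + 1) was fitted in R 4.3.3 with limma 3.58.1 (12 group means, 24 residual degrees of freedom, trended and robust variance with statmod 1.5.0) over the 15713 of 18949 genes with at least 1 CPM in 3 libraries, with 14 contrasts and adjustment over all genes within each. Groups came from the sample titles. The replicates are called biological in the paper, but how their cultures were kept apart is not given in the sources used here, so p-values measure the spread between these samples. Positions and exon lengths are from the Ensembl annotation of the same build, which held all 200 genes. Tables and plots used Python 3.11.15, pandas 2.3.3, numpy 2.4.6 and matplotlib 3.10.9.

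The members and gene lists were chosen with earlier results of these data known. Named were the 8 members of highest mean CPM, for each contrast the 3 called members with the largest log2FC in each direction among those whose higher group averaged 2 CPM or more, *fbxa-75*, *fbxa-158* and *fbxa-182*, the 3 just inside and outside the filter, and SCF and pathogen response genes. Others named, such as *fbxa-181* and members of runs and patterns, were chosen after their values were seen. The rule also picked *fbxa-154* for the RNAi comparison of day 5 and *fbxa-29* for that of day 9, which are not described above. Pairs by protein identity were part of the rule and are not reported here. Alternatives were other pseudocounts, filters, thresholds, scaling, variance models, a replicate block and leaving out each library.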

Additional observations from a re-analysis of the deposited data

Results flagged for a closer look

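Ageing moved some *fbxa* genes differently under the 2 RNAi conditions, which was tested as an interaction across all genes. From day 1 to day 5 the change was higher with *cco-1* RNAi for 33 of the 160 members and lower for 25. From day 1 to day 11 it was higher for 31 and lower for 45. *fbxa-72*, *fbxa-60* and *fbxa-51* stood on the higher side by day 11 and *fbxa-166*, *fbxa-140* and *fbxa-97* on the lower side. Among all genes tested 17.5% and 17% passed by day 5 and 17.2% and 18.1% by day 11. No group was searched for a single outlying library, since each holds 3.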

How the results depend on the processing

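Counts of members past the threshold depended mostly on the threshold and the pseudocount, as low genes have small log2FC. Counts are given as higher and lower in the order RNAi day 1, 3, 5, 7, 9 and 11, then age changes. No shares of all genes are given for the other thresholds, pseudocounts and filters. These counts therefore show how the calls of members move, and not how members compare with all genes. Without a log2FC threshold the RNAi days had 6, 24, 49, 51, 40 and 44 higher and 27, 46, 48, 45, 48 and 71 lower, ev day 5 to 11 had 70 lower, *cco-1* RNAi day 1 to 5 had 20 lower, day 5 to 11 52 higher and 52 lower and day 1 to 11 28 lower, and the difference of age changes to day 5 had 38 lower. With a threshold of 1 the RNAi days from 3 on had 0, 0, 2, 1 and 4 higher and all 6 days 0, 0, 9, 6, 4 and 3 lower. In ev worms this threshold left 37 higher and 6 lower by day 5, 13 lower from day 5 to 11 and 18 lower by day 11, in *cco-1* RNAi worms 29 and 3, 16 and 3, and 46 and 4, and in the differences 3 and 8 by day 5 and 10 and 5 by day 11.

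With a pseudocount of 0.1 the days 1, 3, 9 and 11 had 6, 21, 33 and 37 higher, the days 1, 3 and 9 had 21, 29 and 31 lower, and *cco-1* RNAi worms 40 lower from day 5 to 11 and 23 from day 1 to 11. With a pseudocount of 5 the RNAi days had 1, 0, 4, 4, 1 and 3 higher and 2, 0, 9, 8, 7 and 19 lower. In ev worms it left 42 higher and 3 lower by day 5, 11 lower from day 5 to 11 and 12 lower by day 11, in *cco-1* RNAi worms 27 and 4, 17 and 5, and 43 and 4, and in the differences 6 and 8, and 10 and 19. A filter of 5 CPM, which tests fewer members, left 4, 13, 11, 5 and 9 higher from day 3 on and 6, 4, 16 and 15 lower on days 1 to 7. With it ev worms had 47 higher and 11 lower by day 5, 17 lower from day 5 to 11 and 56 higher and 11 lower by day 11, *cco-1* RNAi worms 50 higher by day 5, 12 lower from day 5 to 11 and 5 lower by day 11, and the differences 13 higher and 14 lower by day 5 and 9 higher by day 11.

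Median-ratio scaling gave 22 lower in *cco-1* RNAi worms from day 1 to 11 against 14. It shifted the median log2FC of all genes by -0.113, -0.140 and -0.265 in the ev age changes and by -0.151 and -0.173 in those of *cco-1* RNAi worms from day 1. Leaving out 1 library gave 9 to 16 lower on day 3 against 8, with 15 without ev replicate 2 and 16 without *cco-1* RNAi replicate 2, and kept all other counts within 1.5 times. No filter, a variance factor for each group and a fit of only the groups compared kept all 28 counts within 1.5 times. A replicate block did too, with 88 higher and 37 lower in ev worms from day 1 to day 11, as without it. Samples of the same replicate number did not deviate together on average (mean r -0.002 against 0.001 for other numbers, 11 of 198 pairs over 0.1). Most of these pairs join different ages. Between ev and *cco-1* RNAi libraries of 1 day, r ran from -0.138 at day 9 to 0.207 at day 5. The mean therefore cannot tell whether numbers pair the samples within a day. Of 324 tests of named members none changed direction, 128 lost their call with a pseudocount of 5, 24 with median-ratio scaling and 1 with a pseudocount of 0.1, and leaving out libraries ended 88 calls, each counted once per library left out. Read depth is unknown, so values near 1 CPM carry a counting error that cannot be given.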
